A study of Homo sapiens with 6 samples.

Results

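The 10 genes described here are transcriptional outputs and brakes of the ERK pathway: the phosphatase genes DUSP4, DUSP5 and DUSP6, the Sprouty genes SPRY1, SPRY2 and SPRY4, the related SPRED1 and SPRED2, and the transcription factor genes ETV4 and ETV5. They were chosen for what they do, though with earlier results of these data known. Each was read from the probe set annotated with that gene symbol alone, taking the brightest over the 6 arrays where there were several. All 10 had exactly 1 such probe set, out of 14232 genes measured in this way on a table of 22011 probe sets.

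The cells were MO3.13, a human line that the submitters label as oligodendroglioma and that is known as a hybrid of cultured oligodendrocytes and a rhabdomyosarcoma line. The Klotho-treated group consisted of 3 arrays from cells given recombinant mouse Klotho at 0.4 µg/mL in serum-free DMEM for 3.5 h. The control group consisted of 3 arrays from cells described as growing in DMEM with 10% fetal bovine serum, penicillin, streptomycin, L-glutamine and sodium pyruvate, the same growth medium as that named for the treated cells before treatment. Whether the control cells were also kept without serum for 3.5 h is not stated. The effects of Klotho and of leaving out serum therefore cannot be told apart here. Neither can a change in RNA per cell and a change in the mix of cells.

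Growth factor receptors, among them the FGF receptors to which Klotho binds as a co-receptor, switch on RAS, RAF, MEK and ERK in turn. Active ERK raises the transcription of proteins that turn the same pathway down, so that transcripts such as DUSP6 and SPRY4 are widely used as a readout of how active ERK has been over the preceding hours. ERK also relieves repression by Capicua (the CIC gene), whose best known targets are ETV4, ETV5, DUSP6 and SPRY4.

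Across the whole table the arrays were closely alike, with correlations of 0.985 to 0.991 and array medians of 6.36 to 6.47 on the log2 scale. The labelled cell type was checked against markers. Of 10 measured oligodendrocyte lineage markers the enzyme gene CNP was bright, at 8.81 ± 0.13 in Klotho-treated and 8.83 ± 0.10 in control cells (log2, SD, n = 3 each). The lineage factors OLIG2 and SOX10 and the myelin genes MBP and MOG lay below the median of all probe sets (6.40). Several skeletal muscle genes were bright, with MYOD1, the myogenic master regulator, at 9.63 ± 0.06 and 9.72 ± 0.11, and CHRNA1, a subunit of the muscle acetylcholine receptor, at 11.68 ± 0.04 and 11.67 ± 0.11. Others of the 10 measured muscle genes were not: MYF6 measured 5.25 ± 0.12 in Klotho-treated and 5.08 ± 0.22 in control cells, and MYF5, a myogenic factor of early muscle cells, 3.66 ± 0.03 and 3.60 ± 0.29. The leukocyte gene PTPRC was among the dimmest probe sets, at 2.54 ± 0.02 in Klotho-treated and 2.53 ± 0.07 in control cells. The muscle list averaged 8.31 to 8.34 on the treated and 8.34 to 8.38 on the control arrays, the oligodendrocyte list 5.80 to 6.02 and 5.82 to 5.92, the astrocyte list 4.77 to 4.90 and 4.80 to 4.97, and the microglia and blood list 4.09 to 4.24 and 4.02 to 4.23.

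All 10 ERK feedback genes gave bright signals in both groups, and none differed between them beyond the spread of the arrays. Their mean signals lay above 69.5% (DUSP5) to 98.0% (DUSP6) of all probe sets, and none was below the lower quartile of mean signal (4.70). Probe sets bind their targets with unequal efficiency, so this order of signals is not an order of transcript numbers. In the limma fit of all probe sets, 0 of the 10 genes passed an adjusted p of 0.05, where 0 of 22011 probe sets passed (0%). None reached an unadjusted p under 0.05 either, against 295 of the 14232 genes (2.07%). The differences ran from -0.17 (DUSP4) to 0.02 (SPRY1) on the log2 scale, Klotho-treated minus control.

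**Figure D1:**
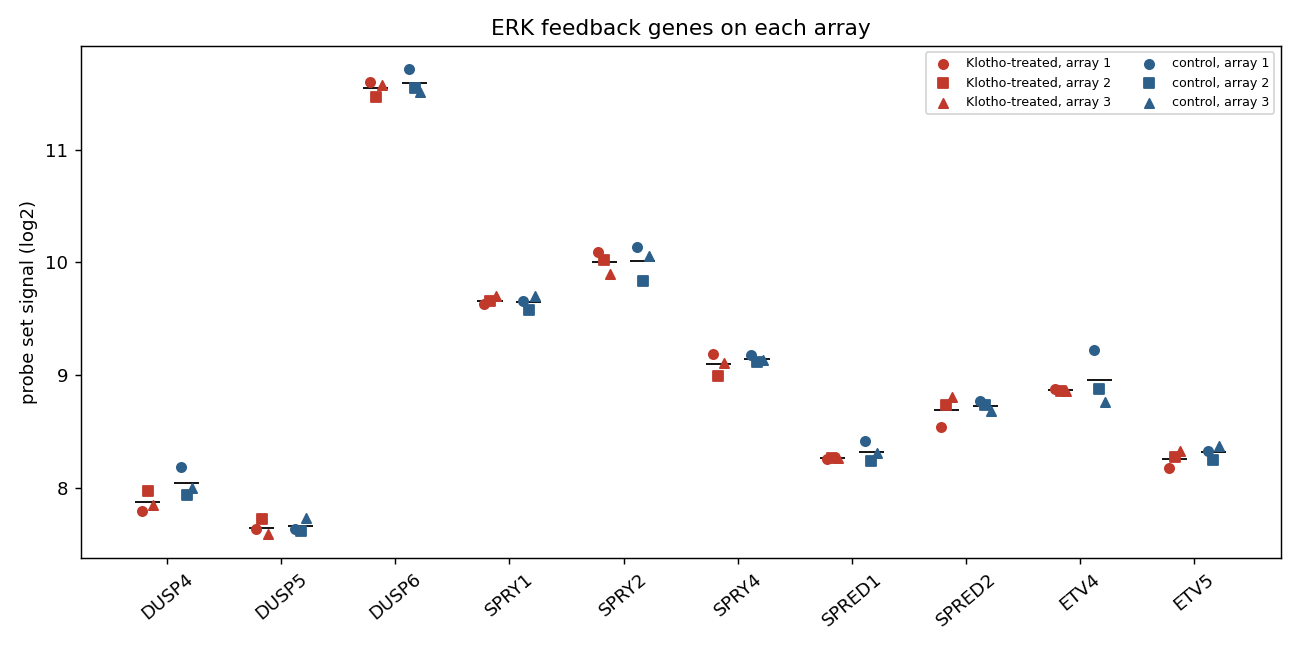
Probe set signal (log2, vertical axis) of each ERK feedback gene on the 3 Klotho-treated arrays (red, left of each pair) and the 3 control arrays (blue, right), with horizontal bars at the group means. The treated and control points overlap for all 10 genes, and DUSP6 is the brightest probe set at 11.5 to 11.7.

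The phosphatases come first among the brakes. DUSP6 encodes the cytoplasmic phosphatase MKP-3, which is selective for ERK. Its signal was 11.60, 11.47 and 11.58 on the Klotho-treated arrays, against 11.71, 11.55 and 11.51 on the control arrays. The highest value came from control array 1 and the lowest from treated array 2, so the groups overlapped. The difference was -0.04 with a 95% interval of -0.26 to 0.17 (limma, adjusted p = 0.998), which spans 0.836-fold to 1.13-fold.

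DUSP6 is also the only 1 of the 6 genes searched whose promoter window carried the letters of a Capicua site. Windows of 300 bases, 250 before and 50 after an annotated start, were available from RefSeq (GRCh38.p14) for 6 of the 10 genes, in 10 windows: DUSP6, SPRY1, SPRY2, SPRY4, SPRED1 and SPRED2. The Capicua octamers TGAATGAA, TGAATGGA, TCAATGAA and TCAATGGA, searched on both strands, occurred in 1 of these 10 windows and in 3.77% of all 35116 windows. The DUSP6 window held TCAATGGA at 2 places, both on the strand opposite to the gene, 1 before the start and 1 past it. It was the only 1 of the 35116 windows with that 1 octamer more than once. Counting all 4 octamers, 115 windows (0.33%) held more than 1 match. It also held the ETS-type motif CGGAAG on the opposite strand, found in 3 of the 10 windows (DUSP6, SPRY1 and SPRED2) and in 19.5% of all. The promoters of DUSP6 and SPRY4 are shown side by side because both genes are classical Capicua targets and only the first has an octamer in this window. Capitals mark the Capicua octamers and the ETS-type motif in DUSP6, and the GC box GGGCGG in SPRY4. The 280 bases of each run 5′ to 3′ along the gene and end 30 bases past the start, at chr12:89352472-89352751 (minus strand) for DUSP6 and chr5:142324218-142324497 (minus strand) for SPRY4.
DUSP6: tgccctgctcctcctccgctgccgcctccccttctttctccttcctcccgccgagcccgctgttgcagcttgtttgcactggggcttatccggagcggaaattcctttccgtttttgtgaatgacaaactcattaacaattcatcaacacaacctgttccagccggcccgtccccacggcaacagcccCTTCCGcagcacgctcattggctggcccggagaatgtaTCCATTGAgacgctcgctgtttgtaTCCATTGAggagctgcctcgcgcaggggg
SPRY4: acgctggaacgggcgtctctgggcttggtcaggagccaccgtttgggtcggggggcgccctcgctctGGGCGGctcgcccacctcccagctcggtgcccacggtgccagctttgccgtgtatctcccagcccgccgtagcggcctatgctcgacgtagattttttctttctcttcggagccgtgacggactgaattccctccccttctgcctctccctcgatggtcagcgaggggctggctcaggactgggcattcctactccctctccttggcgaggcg

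The GC box was the most common motif, present in 6 of the 10 windows and in 45.0% of all. The AP-1 motif TGACTCA occurred in 1 window of SPRED2, against 4.95% of all windows, and the cyclic AMP response half-site TGACGT in the other window of SPRED2, against 7.98%. These matches describe letters in a short window and were not tested as binding sites. DUSP4, DUSP5, ETV4 and ETV5 were not searched.

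DUSP4 encodes MKP-2, a nuclear phosphatase of ERK and the stress-activated kinases. It measured 7.79, 7.98 and 7.85 on the Klotho-treated arrays, against 8.19, 7.94 and 8.01 on the control arrays. Treated arrays 1 and 3 lay below all controls, but treated array 2 lay above control array 2, so the groups overlapped. The difference was -0.17 with a 95% interval of -0.41 to 0.07 (limma, adjusted p = 0.998), the lowest of the 10. It stayed below 0 under all 16 alternative settings, from -0.22 without treated array 2 to -0.10 without control array 1, and under these it never passed the threshold (adjusted p of 0.783 or more).

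DUSP5 encodes a nuclear phosphatase that acts on ERK alone and holds it in the nucleus. Its values were 7.64, 7.72 and 7.59 on the Klotho-treated arrays, against 7.64, 7.62 and 7.73 on the control arrays. Both groups covered nearly the same range, and the difference was -0.02 with an interval of -0.21 to 0.18. That is a range of 0.866-fold to 1.13-fold.

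The Sprouty proteins act upstream of ERK, where they interfere with signalling from receptor tyrosine kinases to RAS and RAF. SPRY4 measured 9.19, 8.99 and 9.11 in Klotho-treated cells, against 9.18, 9.11 and 9.14 in control cells. The treated arrays held both the highest and the lowest value. The difference was -0.05 (95% interval -0.25 to 0.15).

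SPRY2 had 10.09, 10.02 and 9.90 on the Klotho-treated arrays, against 10.14, 9.84 and 10.06 on the control arrays. Here the controls enclosed the treated values, and the difference of -0.01 (95% interval -0.27 to 0.25) was the closest to 0 of the 10. The direction of so small a value changed under 6 of the 16 settings.

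SPRY1 was the only member with a higher treated mean, by 0.02 (95% interval -0.17 to 0.20). It measured 9.63, 9.66 and 9.70 on the treated arrays, against 9.66, 9.58 and 9.71 on the control arrays. Its 6 values spanned 0.13, the narrowest range of the 10 genes.

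SPRED1 and SPRED2 share the Sprouty-type cysteine-rich domain and bring the RAS inactivator neurofibromin to the membrane. SPRED1 gave 8.26, 8.27 and 8.27 on the Klotho-treated arrays, against 8.42, 8.24 and 8.31 on the control arrays. The 3 treated values were nearly equal and lay between the 2 lower controls. The difference was -0.06 (95% interval -0.25 to 0.14), and it was -0.01 without control array 1.

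SPRED2 gave 8.54, 8.74 and 8.81 in Klotho-treated cells, against 8.77, 8.74 and 8.69 in control cells. Treated array 1 was the lowest and treated array 3 the highest of all 6. The difference was -0.04 (95% interval -0.26 to 0.19), and without treated array 1 it was 0.04. NF1, the gene of neurofibromin, measured 8.33 ± 0.19 in Klotho-treated and 8.46 ± 0.25 in control cells (log2, SD, n = 3 each), a difference of -0.13 (95% interval -0.51 to 0.25).

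ETV4 and ETV5 belong to the PEA3 group of ETS transcription factors, which carry FGF and ERK signals into gene expression. ETV4 measured 8.88, 8.86 and 8.86 on the Klotho-treated arrays, against 9.23, 8.88 and 8.76 on the control arrays. The treated values were almost identical, whereas control array 1 stood 0.32 above the gene's mean. The difference was -0.09 with a 95% interval of -0.40 to 0.22, the widest interval of the 10. Leaving out control array 1 turned it to 0.05, and leaving out control array 3 gave -0.19.

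ETV5 measured 8.18, 8.27 and 8.32 in Klotho-treated cells, against 8.33, 8.25 and 8.37 in control cells. Treated array 1 was the lowest and control array 3 the highest, and the groups overlapped. The difference was -0.06 (95% interval -0.25 to 0.14). ETV1, the remaining factor of the PEA3 group, measured 9.10 ± 0.16 and 9.20 ± 0.13 (log2, SD, n = 3 each), a difference of -0.10 (95% interval -0.38 to 0.18).

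**Figure D2:**
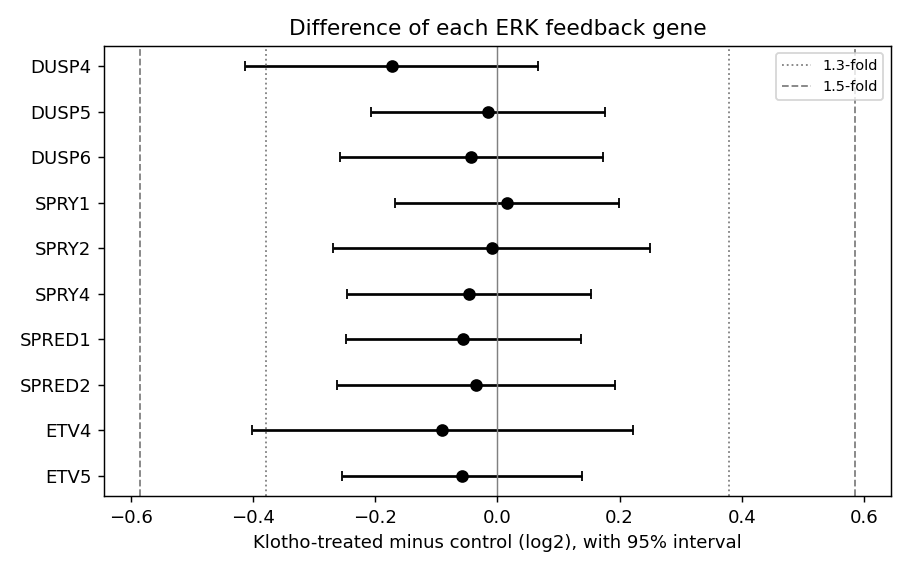
Difference between Klotho-treated and control cells (log2, horizontal axis) for each ERK feedback gene, with 95% intervals from limma as bars. All 10 intervals cross 0 and lie within a 1.5-fold change (dashed lines). Of these, 8 lie within a 1.3-fold change (dotted lines), with DUSP4 and ETV4 reaching past it on the lower side. Of all 14232 genes, 13053 had intervals within 1.5-fold and 9108 within 1.3-fold. The 1.3-fold bound was set after the intervals were seen.

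The data bound the size of any difference in signal more closely than they show one. The 95% intervals of 8 of the 10 genes excluded a change of more than 1.3-fold, against 9108 of the 14232 genes (64%). That bound was set after the intervals were seen, and the intervals are for the values as deposited. The intervals of DUSP4 and ETV4 reached down to 0.751-fold and 0.757-fold. The standard error had a median of 0.09 over the 10 genes and 0.11 over all genes. A bound on a probe set's signal bounds the transcript only as far as the probe set responds in proportion, which was not tested. These intervals hold gene by gene, for 1 time point, and whether the arrays represent separate cultures is not stated in the labels.

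The number of genes on either side of 0 followed the scaling of the arrays. As deposited, 9 of the 10 were lower in Klotho-treated cells, with a median difference of -0.04, against 62.6% of all genes lower and a median of -0.03. With each array centred on its median, or with quantile normalization, 4 of the 10 were lower, against 42.7% and 46.8% of all genes. With cyclic loess 5 were lower, against 50.3%. In no member did the treated and control values separate completely, against 755 genes that separated with treated values lower (5.3%) and 368 with treated values higher (2.59%).

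**Figure D3:**
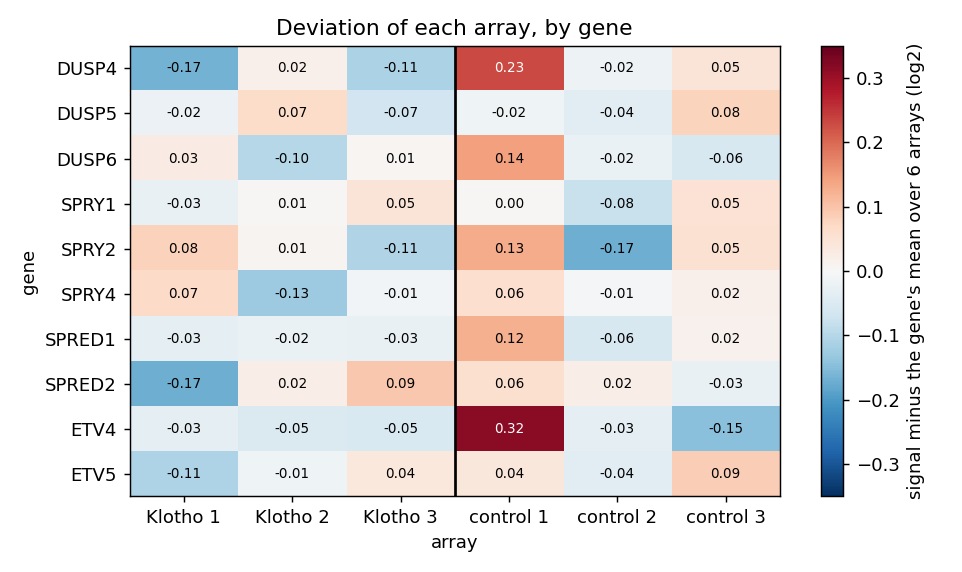
Signal of each ERK feedback gene (rows) on each array (columns, Klotho-treated left of the line and control right) minus that gene's mean over the 6 arrays, in log2 units given by colour and number. Control array 1 holds the largest deviation, 0.32 for ETV4, and the highest value of 5 of the 10 genes.

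Control array 1 gave the highest of the 6 values for 5 members (DUSP4, DUSP6, SPRY2, SPRED1 and ETV4), and it did so for 33.8% of all genes. It also had the highest array median, 6.47. Averaged over the 10 members, the signal was 8.98, 9.00 and 9.00 on the Klotho-treated arrays, against 9.13, 8.97 and 9.03 on the control arrays, so that the treated averages lay between those of control arrays 2 and 3. Without control array 1, 6 of the 10 were lower in treated cells, with a median of -0.01, against 53% of all genes.

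The wider pathway was examined through 5 further lists, of which 49 of 65 genes had a probe set of their own. Of these 49, 0 passed the adjusted threshold in limma, as for all probe sets. None had an unadjusted p under 0.05, against 2.07% of all genes. The 95% intervals of all 49 lay within a 1.5-fold change, as did those of 13053 of the 14232 genes. As deposited 39 were lower and 10 higher in Klotho-treated cells, with a median of -0.06. Of all genes 62.6% were lower, with a median of -0.03.

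Among 7 other MAP kinase phosphatases, 6 were lower and 1 higher as deposited, with a median of -0.06. Under the 3 other scalings 5 or 6 were lower (medians -0.02 to -0.01), against 42.7% to 50.3% of all genes. DUSP1, the immediate-early phosphatase MKP-1, measured 7.92, 7.81 and 7.96 on the Klotho-treated arrays, against 8.09, 7.62 and 8.23 on the control arrays. Its control values enclosed the treated ones, and the difference was -0.08 (95% interval -0.48 to 0.32). DUSP7, a cytoplasmic relative of DUSP6, differed by -0.08 and DUSP10, a phosphatase of the stress kinases, by -0.09, and neither passed.

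The inhibitor list held 9 measured genes, 7 lower and 2 higher as deposited. Under each of the 3 other scalings 4 were lower, against 42.7% to 50.3% of all genes. IL17RD, the FGF receptor inhibitor SEF, measured 8.21 ± 0.07 in Klotho-treated and 8.23 ± 0.04 in control cells (log2, SD, n = 3 each). CBL, a ubiquitin ligase for activated receptors, had the smallest p of the list with a difference of -0.18 (95% interval -0.55 to 0.19), followed by LRIG3 at -0.11. SPRY3, SPRED3 and RASA1 were not measured.

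The list of adapters and kinases from receptor to ERK also held RPS6KA1, RPS6KA2 and RPS6KA3, which encode kinases that act below ERK. This list had the lowest median of the 5 as deposited. Without control array 1 it did not, as the other MAP kinase phosphatases were lower (-0.07). All 11 measured genes were lower in Klotho-treated cells as deposited, with a median of -0.12, and under the 3 other scalings (medians -0.07 to -0.05). Without control array 1, 9 of 11 were lower (median -0.06). Of all genes, 62.6% were lower as deposited, 42.7% to 50.3% under the other scalings and 53% without control array 1. SHC1, an adapter at activated receptors, measured 8.34, 8.40 and 8.32 on the treated arrays, against 8.59, 8.40 and 8.55 on the control arrays. MAPK3, which encodes ERK1, measured 8.12, 8.14 and 8.13, against 8.40, 8.15 and 8.27. Treated array 2 and control array 2 all but met in both genes, and the groups did not overlap. The differences were -0.16 (95% interval -0.36 to 0.04) for SHC1 and -0.14 (95% interval -0.36 to 0.07) for MAPK3, each with an adjusted p of 0.998 in limma. The kinase gene ARAF, named after its values were seen, was the third of this list whose groups did not overlap, with a difference of -0.12. MAP2K1, which encodes the kinase MEK1, had no probe set of its own.

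Of 8 measured ETS factors and Capicua partners, 7 were lower as deposited, against 62.6% of all genes. Under each of the other scalings 3 were lower, against 42.7% to 50.3% of all genes. CIC itself measured 6.69 ± 0.06 in Klotho-treated and 6.70 ± 0.07 in control cells (log2, SD, n = 3 each), and the difference was -0.01 (95% interval -0.21 to 0.18). ETS2, an ETS factor activated by ERK phosphorylation, gave 6.53, 6.59 and 6.57 on the treated arrays, against 6.96, 6.59 and 6.80 on the control arrays. All its treated values lay below the controls, by little for control array 2, and the difference of -0.22 (95% interval -0.48 to 0.04) had an adjusted p of 0.998 in limma. ELK3 differed by -0.15.

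Other transcripts that ERK raises were 8 lower and 6 higher among 14 measured genes as deposited. Under the 3 other scalings 3 or 4 were lower, against 42.7% to 50.3% of all genes. PHLDA1, an early target of ERK, gave 8.87, 8.83 and 8.82 on the Klotho-treated arrays, against 8.85, 8.83 and 8.82 on the control arrays. CCND1, the cyclin D1 gene, differed by 0.01 (95% interval -0.22 to 0.24), EGR1, an immediate-early factor, by -0.04 (95% interval -0.25 to 0.16) and FOSL1, an AP-1 subunit, by -0.04 (95% interval -0.33 to 0.24). The lowest p values were those of the membrane protein gene EMP1 (-0.18, 95% interval -0.41 to 0.04) and the urokinase receptor gene PLAUR (-0.12). In all 5 lists, 6 of 49 genes had groups that did not overlap, each lower in treated cells: SHC1, MAPK3, ARAF, ETS2, EMP1 and DUSP9, the last also named after its values were seen. Over all genes, 5.3% separated with treated values lower and 2.59% with treated values higher. Control array 1 was the highest array for the first 5 of these.

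**Figure D4:**
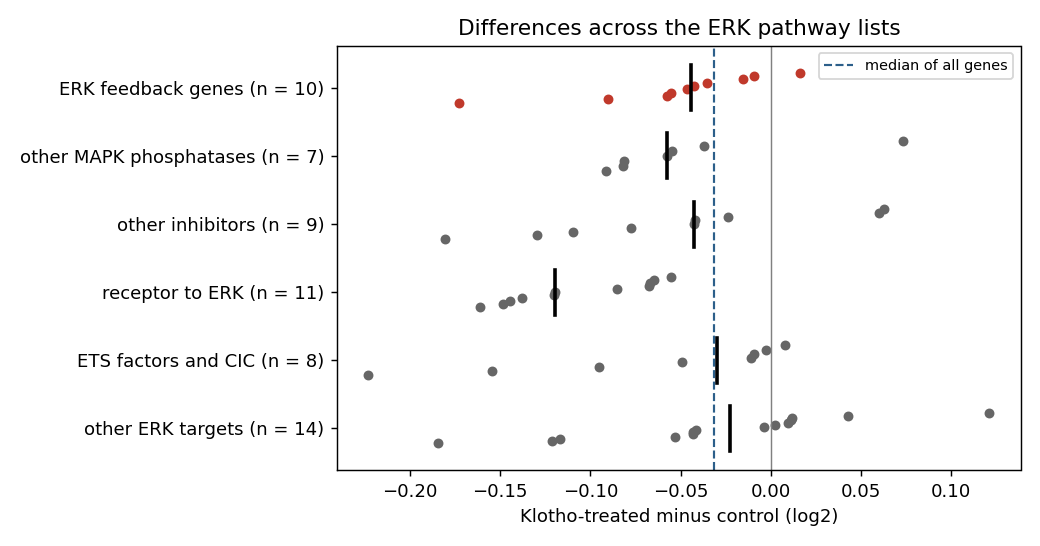
Difference between Klotho-treated and control cells (log2, horizontal axis) for each measured gene of the ERK feedback group (red) and of 5 further ERK pathway lists (grey), with black bars at the list medians and a dashed line at the median of all genes (-0.03). The ERK feedback median of -0.04 lies beside that line. The list labelled receptor to ERK also holds kinases that act below ERK. It has the lowest median of these deposited values, -0.12, but not without control array 1.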

How the data were processed

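Total RNA of 6 MO3.13 samples was amplified with the NuGEN procedure from 100 ng and hybridised to arrays, per the labels' protocols. The values deposited by the authors are on the log2 scale, with 1 value for each probe set on each array. RMA is named, with no version, in the submitters' processing notes; which software and filters were used is not given in the sources used here. No intensities, detection calls or scan dates were used. Gene symbols came from the platform annotation (14432 probe sets with 1 symbol, 2408 with several, 5171 with none; all probe sets were tested).

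Groups came from the sample titles. The group comparison was a 2-sided limma test (version 3.58.1, R 4.3.3, lmFit then eBayes), adjusted by Benjamini-Hochberg across the 22011 probe sets. The threshold was 0.05, and 95% intervals came from the moderated variance. The fit was checked on data simulated from its own variance model. That simulation held no shifts of whole arrays, so the check does not cover them. The labels do not say that replicate numbers pair the arrays, so the main fit held no replicate block. The members, the lists and the tests were chosen with earlier results of these data known, and the 1.3-fold bound after the intervals were seen. Named genes are all members, the 2 of smallest p per list and a fixed set, of which ERF and MAP2K1 lacked a probe set of their own and 1 gene is not reported here. The number of arrays limits the precision, and p-values reflect only how much these 6 arrays vary, which may be technical.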

Additional observations from a re-analysis of the deposited data

How the results depend on the processing

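The 16 alternatives included 3 other scalings, 2 variance models, array weights, removal of dim probe sets and a replicate block. The rest were averaged probe sets, single-symbol probe sets only and leaving out each array. Under these, 0 probe sets and 0 members passed the adjusted threshold in limma, and 0 members had an unadjusted p under 0.05. Where all 22011 probe sets were tested, those with an unadjusted p under 0.05 numbered 577 to 1644 (703 as reported). Fewer were tested in 3 settings, with 436 of 16508 without dim probe sets, 447 of 14432 with single-symbol probe sets and 693 of 21811 with averaged probe sets. The smallest adjusted p of a member was 0.778. The number of members higher in Klotho-treated cells, 1 as reported, was 6 with median centring, 6 with quantile normalization, 5 with cyclic loess, 0 with array weights and 0 to 4 without single arrays, the 0 without control array 2 and the 4 without control array 1. Members whose groups did not overlap, 0 as reported, numbered 0 to 3 without single arrays, the 3 without control array 2; with fewer arrays groups separate more easily. Of 160 recomputed member differences, 26 changed sign, in 9 of the 10 genes, and DUSP4 was the exception. The cause of these changes was not tested. With the replicate number as a block the median difference was -0.04 and 0 members passed the adjusted threshold. Deviations of same-numbered arrays correlated at r = -0.18, 0.06 and -0.14, and those of differently numbered arrays at -0.13 to 0.24. With 3 arrays per group these values cannot settle whether same-numbered arrays shared a culture or a day. Without read depth, signal and array number set the limits.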
